A study of Mus musculus with 6 samples.

Results

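The proximal genes of the B-cell receptor pathway were examined in leukaemia cells of mice: 30 genes for receptor chains, coreceptors, kinases, adaptors, lipid enzymes and inhibitory phosphatases, taken by symbol from a table of 54232 genes. All 30 were found in the table, and 28 of them had enough counts to be tested. The cells were sorted splenic chronic lymphocytic leukaemia (CLL) cells of the Eµ-TCL1 model, in which the immunoglobulin heavy chain enhancer (Eµ) drives the TCL1 oncogene in B cells. Mononuclear cells from terminally ill Eµ-TCL1 spleens were injected into the peritoneum of C57BL/6J WT recipients, so the host tissue was wild type in both groups. The CK1i group (3 libraries) came from recipients dosed by mouth with PF-670462 at 50 mg/kg in 10% kolliphor/PBS; the compound blocks the delta and epsilon forms of casein kinase 1. The CTRL group (3 libraries) came from recipients given 10% kolliphor/PBS alone. Dosing began 5 days after cell transfer, was paused for 2 days after every 5 days of treatment, and lasted 8 weeks, and the experiment was ended when CTRL mice were terminally ill. The labels do not give the age of the mice, say how many donors were used or tie each library to a mouse of its own, so the p-values reflect sample-to-sample spread that may be technical.

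The B-cell receptor is a membrane immunoglobulin bound to the signalling chains CD79A and CD79B. When antigen binds it, Src family kinases phosphorylate the tails of these chains, SYK docks there and, through the adaptor BLNK, brings BTK and phospholipase C gamma 2 together, while PI3K makes the membrane lipid that recruits them. Calcium then activates NFAT, and protein kinase C beta activates NF-kB. CLL cells depend on this pathway, and drugs against BTK and PI3K delta are used in patients. In Eµ-TCL1 mice the leukaemia likewise arises from CD5-positive B cells.

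Libraries held 2472064 to 3105137 counts. The 30 genes took 1.06%, 1.06% and 1.04% of the counts of CK1i replicates 1 to 3, and 1.03%, 1.07% and 1.08% of those of CTRL replicates 1 to 3. B-cell genes were abundant in every library: the summed level of Ms4a1, Pax5, Ebf1, Cd74, Cd37, Spib and Pou2af1 was 7780.3 to 8043 CPM (counts scaled to a common library size) in CK1i and 7098 to 8657 CPM in CTRL. Defining genes of T cells were at or near 0. The sum of Cd3e, Cd3d, Cd3g, Cd4 and Cd8a was 2.96, 0 and 6.42 CPM in CK1i replicates 1 to 3, while the CTRL replicates had 0.71, 0.798 and 1.67 CPM. Of 12 monocyte and macrophage genes, Fcgr1 had no count and Csf1r had 6 counts in all, but the list summed to 43.1 to 60.9 CPM in CK1i and 36.9 to 47.1 CPM in CTRL, mostly from Cd68 and Hmox1. Cd68 itself had 31.0 to 34.9 CPM in CK1i and 20.9 to 25.1 CPM in CTRL, and its part in the levels of the receptor genes was not tested. Plasma cell genes summed to 917 to 1969 CPM in CK1i and 1528 to 2394 CPM in CTRL, mostly from Jchain and Mzb1. In bulk samples fewer cells of a type and less RNA per cell cannot be told apart. The summed level of 26 proliferation genes was 3324, 4418 and 3214 CPM in CK1i replicates 1 to 3, with CTRL replicates at 1611, 3007 and 2734 CPM, and its part in the levels of the receptor genes was not tested either. CTRL replicate 1 stood apart on the first principal component of all tested genes, at 31.4 where the other 5 libraries lay between -12.4 and 4.68.

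The receptor-proximal genes were nearly level between CK1i and CTRL cells. None of the 28 tested members was called by edgeR's quasi-likelihood test at an adjusted p under 0.05, and over all 10067 tested genes the share called was 0%. At an unadjusted p under 0.05 edgeR, DESeq2 and limma-voom each also gave 0 of the 28 members, where edgeR gave 4.70% of all tested genes. Over all genes DESeq2 gave 193 higher and 126 lower of 18824, and limma-voom 286 higher and 195 lower of 10067. DESeq2 was run with no filter on low counts, so its share is not over the same genes. Log2 fold changes of CK1i over CTRL ran from -0.33 for Cd79a to 0.37 for Pik3ap1, with a median of 0.02, beside a median of -0.01 over all tested genes. By direction, 17 members had higher and 11 lower values in CK1i cells, so 60.7% were higher, beside 48.8% of all tested genes. The median size of a log2 fold change was 0.08 among the members and 0.14 among all tested genes. Precision differed too: the median standard error (SE) was 0.16 for the members and 0.20 for all tested genes, and 18 of the 30 members lay above the 90th percentile of tested genes by mean CPM.

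The intervals were narrow. For all 28 tested members the 95% interval of the fold change lay within 2-fold in either direction, and for 25 of them within 1.5-fold. Among all tested genes the shares were 84.5% and 50.7%. The members with an interval beyond 1.5-fold were Cd79a, Pik3ap1 and Pik3r1. Groups did not overlap for 2 members, which is 7.14% of those tested, where 9.70% of all tested genes did not overlap in either direction. They were Pik3ap1, higher in CK1i as were 5.22% of all tested genes, and Cd79b, lower in CK1i as were 4.48%.

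**Figure D1:**
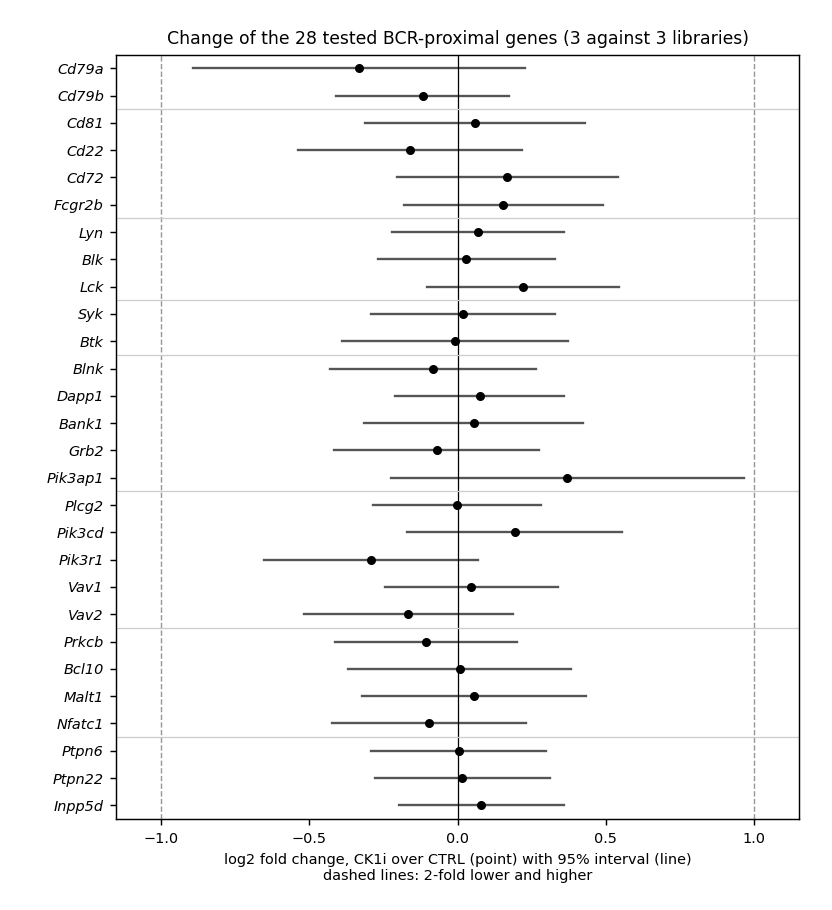
Log2 fold change of CK1i over CTRL (x axis) with its 95% interval for each of the 28 tested genes (y axis, ordered by role), from 3 CK1i and 3 CTRL libraries. Every interval crosses 0, and all lie inside the dashed lines at 2-fold lower and higher.

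Levels among the genes differed far more than levels between the groups. Nfatc1 led with a mean of 1124 CPM over the 6 libraries, followed by Prkcb with 1057, Syk with 847, Cd79b with 723 and Lyn with 633 CPM. Each is a 3′ tag count, read near the end of a transcript whatever its length, so these levels are not divided by gene length. Whether transcript ends lie inside the annotated genes was not tested. The order of the genes by count may therefore not be that of their transcript levels. At the other end were Cd79a at 13.2 CPM, Pik3ap1 at 8.29 CPM, Fyn at 1.24 CPM and Zap70 at 0.267 CPM. Neighbours in this order, such as Grb2 at 544 and Cd81 at 536 CPM, often differed by less than the spread between libraries.

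**Figure D2:**
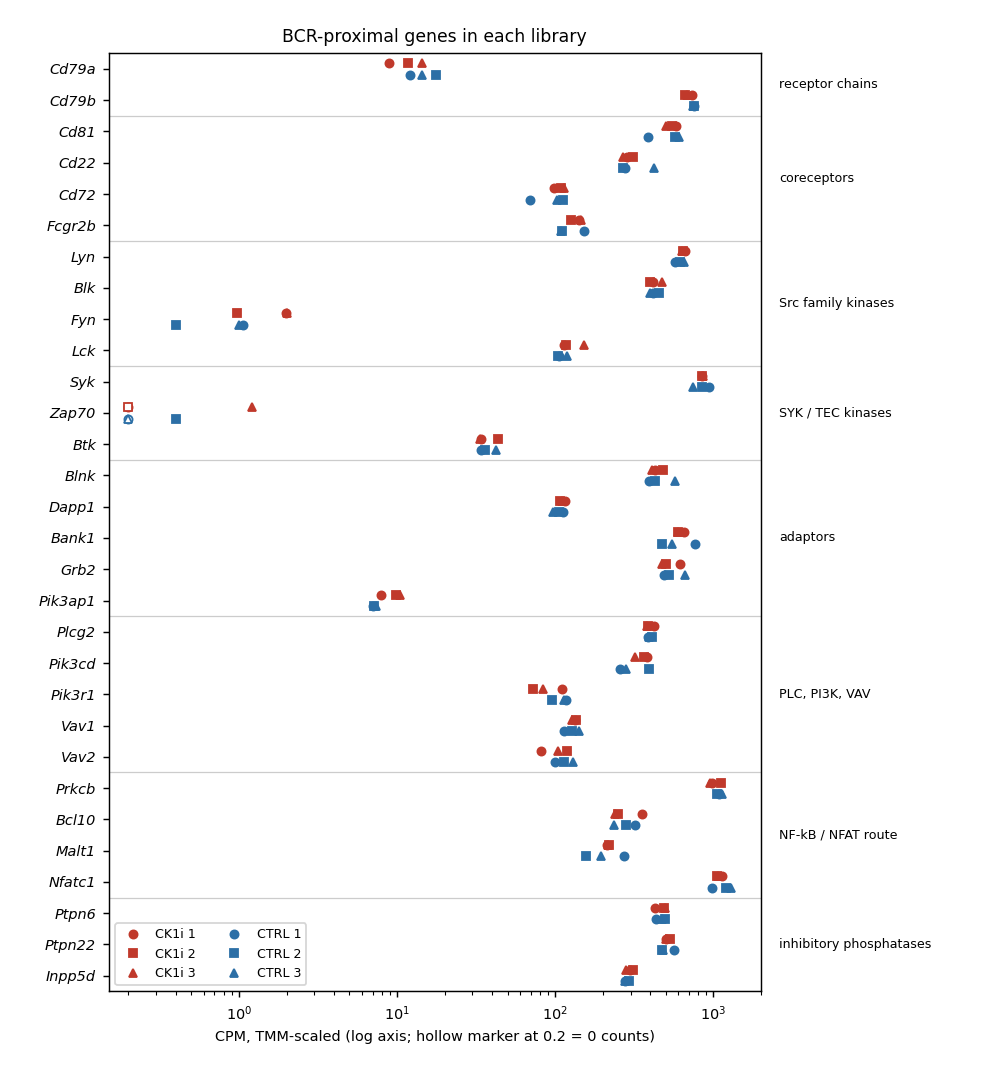
CPM of each of the 30 genes (y axis, grouped by role) in each library on a log axis, CK1i libraries in red above CTRL libraries in blue, with a hollow marker for a count of 0. The genes span from under 1 CPM for Zap70 to means of 1124 CPM for Nfatc1 and 1057 CPM for Prkcb, while red and blue markers of a gene sit close together.

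The members lie on many chromosomes, and their promoters share few of the elements searched for. RefSeq promoter windows (GRCm38.p6, 250 bases before to 50 after a start) were found for 25 of the 30 members, in 34 windows, and not for Cd79b, Lyn, Blk, Malt1 and Nfatc1. The octamer ATTTGCAT, bound in B cells by OCT2 with its coactivator OBF1, was searched on both strands and stood in 2 of the 34 windows, those of Prkcb and Blnk, against 1.74% of all 32851 windows. The E-box CACGTG is an element of the clock activators whose repressors casein kinase 1 delta and epsilon phosphorylate. It stood in windows of Plcg2, Pik3ap1 and Zap70, which is 3 of 34 against 7.15% of all windows. No match overlapped another. Stretches around the octamer and the E-box are shown for the 4 tested members that hold one. Zap70, which had 4 counts in all, is not shown. They run 5′ to 3′ on the gene's strand, with the match in capitals.
Prkcb, chr7:122289030-122289087, plus strand, octamer on the reverse strand: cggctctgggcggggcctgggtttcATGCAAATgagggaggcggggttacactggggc
Blnk, chr19:40994319-40994376, minus strand: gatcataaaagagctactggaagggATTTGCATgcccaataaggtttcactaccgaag
Plcg2, chr8:117498230-117498285, plus strand: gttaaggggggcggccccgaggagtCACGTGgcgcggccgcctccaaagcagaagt
Pik3ap1, chr19:41385244-41385299, minus strand: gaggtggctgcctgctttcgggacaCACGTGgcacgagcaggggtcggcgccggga
The matches start 70, 130, 20 and 172 bases before the RefSeq start of the window for Prkcb, Blnk, Plcg2 and Pik3ap1, in that order. The GENCODE M21 annotation of GRCm38 places the outermost start of Prkcb at chr7:122288751 and that of Blnk at chr19:40994535. Both octamers lie downstream of those starts, inside the annotated genes. A match describes letters in the window and does not show that a factor binds there, or which factor would.

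Of the receptor chains, Cd79b had many counts and Cd79a few. Cd79b had 737, 663 and 680.2 CPM in CK1i replicates 1 to 3, against 756, 753 and 749.8 CPM in CTRL replicates 1 to 3. All CK1i libraries lay below all CTRL libraries, whose coefficient of variation was 0.392%. That value comes from 3 libraries with 1886 to 2246 counts, and counting error alone would give a larger one. The difference was small: the log2 fold change was -0.12 ± 0.14 (SE; edgeR adjusted p = 0.9995), with a 95% interval from -0.41 to 0.17. Cd79a had 27, 36 and 36 counts in CK1i and 34, 44 and 43 counts in CTRL, or 8.88 to 14.4 and 12.1 to 17.6 CPM. The groups overlapped, and the log2 fold change was -0.33 ± 0.26 (SE; edgeR adjusted p = 0.9995). CD79A and CD79B work as a heterodimer, yet Cd79b had 83, 56.4 and 47.1 times the counts of Cd79a in the CK1i libraries, and 62.6, 42.9 and 52.2 times in the CTRL libraries, by replicate. The gap was present in every library and its range overlapped between groups. In the GENCODE M21 annotation of GRCm38, Cd79a (ENSMUSG00000003379) lies at chr7:24897381-24902197 and Cd79b (ENSMUSG00000040592) at chr11:106311341-106314762, and no exon of another gene overlaps either. Whether the 3′ ends of Cd79a transcripts fall outside the annotated gene was not tested.

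The coreceptor Cd81, a tetraspanin of the coreceptor complex, had 584, 552 and 505 CPM in CK1i and 386, 578 and 612 CPM in CTRL. Only CTRL replicate 1 was low, and the log2 fold change of 0.06 became -0.12 without it. The remaining coreceptors are inhibitory, carrying tail motifs that recruit phosphatases. Cd22, a sialic acid binding receptor, had 287, 311 and 268 CPM in CK1i and 277, 267 and 423 CPM in CTRL, so that CTRL replicate 3 alone stood high, and the log2 fold change of -0.16 became 0.09 without it. Fcgr2b, the inhibitory Fc receptor, had 141, 126 and 146 CPM in CK1i, against 152, 110.2 and 109.5 CPM in CTRL. Its CK1i values lay inside the CTRL range, with a log2 fold change of 0.15 ± 0.16 (SE). Cd72 had 97.7 to 113 CPM in CK1i and 69.2 to 113 CPM in CTRL, with CTRL replicate 1 lowest. Its value is uncertain: 348 of its last 500 exonic bases overlap exons of Tesk1 on the opposite strand, Tesk1 held 694 counts, and the labels do not say whether reads were counted by strand.

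Among Src family kinases, which start signalling, Lyn and Blk carried most of the counts and Lck the rest. Lyn, which acts on both activating and inhibitory receptor tails, had 661, 642 and 639.7 CPM in CK1i and 575, 621 and 657 CPM in CTRL. Its coefficient of variation within CK1i was 1.83%, and its log2 fold change was 0.07 ± 0.14 (SE). Blk, a kinase largely restricted to B cells, had 417, 399 and 477 CPM in CK1i and 414, 454 and 399.6 CPM in CTRL, with overlapping groups and a log2 fold change of 0.03 ± 0.14 (SE). Of the counts of the 4 kinases, Lyn held 50.3% to 55.4% in CK1i and 52.5% to 55.8% in CTRL, and Blk 34.4% to 37.5% and 33.9% to 38.5%. Fyn had 6, 3 and 5 counts in CK1i and 3, 1 and 3 in CTRL, too few to test.

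Lck is the T-cell kinase of this family and is also known from B-1 and CLL cells. It had 115, 117 and 153 CPM in CK1i replicates 1 to 3, against 106, 104 and 119.5 CPM in CTRL replicates 1 to 3. CK1i replicate 3 was the highest library, and the other CK1i libraries lay inside the CTRL range. The log2 fold change was 0.22 ± 0.15 (SE; edgeR adjusted p = 0.9995), and 0.07 without CK1i replicate 3. CK1i replicate 3 also had the highest sum of the 5 defining T-cell genes, 6.42 CPM, and the part of this in its Lck level was not tested. In CK1i replicate 2 those 5 genes had no count and Lck had 117 CPM. Over the whole list of 19 T-cell genes, 17 were in the table and Themis alone had no count. The list summed to 186 to 264 CPM in CK1i and 199.6 to 308 CPM in CTRL, of which Cd2, with 170.3 to 235 and 185 to 293 CPM, made most.

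**Figure D3:**
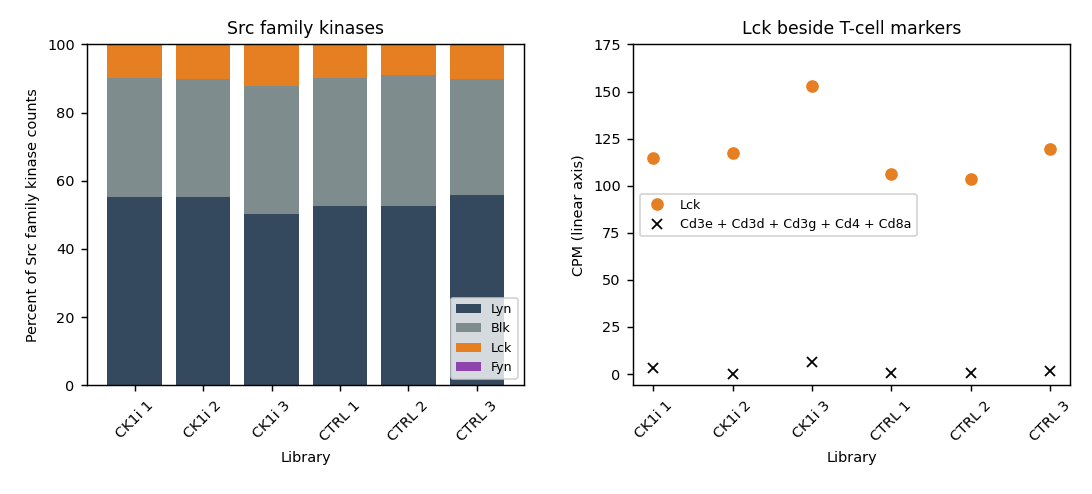
Left, the share of Lyn, Blk, Lck and Fyn in their summed counts (percent) in each library; Fyn, at under 0.2% in each, is too thin to see. Right, Lck (circles) and the summed level of Cd3e, Cd3d, Cd3g, Cd4 and Cd8a (crosses) in CPM on a linear axis, with Lck above 100 CPM in every library and the crosses under 7 CPM.

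SYK and ZAP70 are related kinases that dock on phosphorylated receptor tails, SYK in B cells and ZAP70 in T cells and in a subset of human CLL. Syk had 847, 845 and 866 CPM in CK1i, against 935, 849 and 743 CPM in CTRL. The CK1i libraries had a coefficient of variation of 1.37% and lay inside the CTRL range, with a log2 fold change of 0.02 ± 0.14 (SE) and a 95% interval from -0.29 to 0.33. Zap70 had 3 counts in CK1i replicate 3, 1 in CTRL replicate 2 and 0 in the other 4 libraries, where a count of 0 allows up to 0.978 to 1.06 CPM. CK1i replicate 3, which held those 3 counts, is also the library with the highest sum of the 5 defining T-cell genes. The part of this in its Zap70 counts was not tested. Btk, the target of ibrutinib, had 34.2, 43.7 and 33.7 CPM in CK1i and 34.1, 35.9 and 42.4 CPM in CTRL. Its 3′ tag count was low beside that of Syk, which may not hold for transcript levels. Btk did not differ between groups beyond their spread, with a log2 fold change of -0.01 ± 0.18 (SE).

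The adaptors gather these enzymes at the membrane. Blnk, which links SYK to BTK and phospholipase C, had 426, 481 and 409 CPM in CK1i, against 393, 428 and 574 CPM in CTRL. Bank1, a scaffold that binds LYN, had 656, 598 and 600.4 CPM in CK1i, against 764, 474 and 549 CPM in CTRL. Both were tight in CK1i and wide in CTRL, and without 1 CTRL library the log2 fold change ran from -0.19 to 0.10 for Blnk and from -0.10 to 0.27 for Bank1. Dapp1, an adaptor that binds the lipid products of PI3K, had 108 to 115 CPM in CK1i and 97.5 to 113 CPM in CTRL. Grb2, which leads to RAS, had 472 to 615 CPM in CK1i and 488 to 660.4 CPM in CTRL.

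Pik3ap1, which encodes the adaptor BCAP that recruits PI3K, had the largest positive change. Its counts were 24, 30 and 26 in CK1i and 20, 18 and 22 in CTRL, or 7.90, 9.79 and 10.4 CPM against 7.10, 7.19 and 7.34 CPM. Every CK1i library lay above every CTRL library, at a depth where counting error alone is large. The coefficient of variation within CTRL was 1.73%, far below what counting error alone would give at these counts. Its change on the log2 scale was 0.37 ± 0.28 (SE; edgeR adjusted p = 0.9995), with a 95% interval from -0.23 to 0.97.

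Of the lipid enzymes, Plcg2, the phospholipase that makes the calcium and protein kinase C messengers, was the most level gene of all 28. It had 425, 386 and 381 CPM in CK1i and 389, 409 and 395 CPM in CTRL, a log2 fold change of -0.001 ± 0.13 (SE). PI3K delta is a dimer of a catalytic and a regulatory subunit. Pik3cd, the catalytic one, had 380.0, 364 and 319 CPM in CK1i and 256, 395 and 281 CPM in CTRL, overlapping, with a log2 fold change of 0.19 ± 0.17 (SE). Pik3r1, a regulatory one, had 111, 72.4 and 84.2 CPM in CK1i and 118, 96.2 and 114 CPM in CTRL. It had the smallest p of the members: the log2 fold change was -0.29 ± 0.17 (SE; unadjusted p = 0.105, edgeR adjusted p = 0.9995), ranging from -0.49 without CK1i replicate 1 to -0.16 without CK1i replicate 2. Only CK1i replicate 1 overlapped the CTRL libraries. Vav1 and Vav2, guanine nucleotide exchange factors that act on the actin skeleton, had 128 to 136 and 81.6 to 119.7 CPM in CK1i, against 115 to 142 and 100.1 to 129.9 CPM in CTRL. Their log2 fold changes were 0.05 ± 0.14 for Vav1 and -0.17 ± 0.16 for Vav2 (SE).

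Downstream, protein kinase C beta acts through BCL10 and MALT1 to turn on NF-kB. Prkcb had 982, 1115 and 955 CPM in CK1i, against 1090.1, 1061 and 1138 CPM in CTRL. Nfatc1, a calcium-dependent transcription factor, had 1133, 1057 and 1070.4 CPM in CK1i, against 983, 1209 and 1292 CPM in CTRL. The groups overlapped for both, and log2 fold changes were -0.11 ± 0.14 and -0.10 ± 0.15 (SE). Malt1 had 213, 219 and 216 CPM in CK1i and 272, 158 and 194 CPM in CTRL. For Malt1 the coefficient of variation was 1.39% within CK1i and 27.97% within CTRL. Bcl10 had 353, 248 and 239 CPM in CK1i and 322, 279.8 and 235 CPM in CTRL, a log2 fold change of 0.01 ± 0.18 (SE).

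The inhibitory phosphatases were level as well. Ptpn6, the gene of SHP-1, which removes phosphate from receptor-proximal proteins, had 426, 487 and 495 CPM in CK1i and 437, 493 and 475 CPM in CTRL. Inpp5d, the gene of SHIP-1, which degrades the lipid product of PI3K, had 298, 313 and 282 CPM in CK1i and 276, 292 and 277 CPM in CTRL. Ptpn22, a phosphatase of Src family and ZAP70 kinases in T cells, had 499.5, 535 and 502 CPM in CK1i and 563, 475 and 481 CPM in CTRL. All overlapped between groups, with log2 fold changes of 0.00 ± 0.14 for Ptpn6, 0.08 ± 0.13 for Inpp5d and 0.02 ± 0.14 for Ptpn22 (SE). The inhibitory side, counted as Cd22, Cd72, Fcgr2b, Ptpn6, Ptpn22 and Inpp5d, took 16.2%, 17.8% and 17.6% of the counts of all 30 members in the CK1i libraries and 17.0%, 16.6% and 17.0% in the CTRL libraries, by replicate.

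No library held the lowest value of most members, and none held the highest value of most. CTRL replicate 1 held the lowest value of 9 and the highest value of 7 of the 28 tested members, so it was an extreme for 57.1% of them, beside 42.6% of all tested genes. It was lowest for Cd81, Cd72, Pik3cd, Lyn and Nfatc1, among others, and highest for Bank1, Malt1, Syk, Fcgr2b and Pik3r1, among others. Without it, 13 members in place of 17 had higher values in CK1i, and the median log2 fold change was -0.02. The median coefficient of variation of the members was 7.63% within CK1i and 11.5% within CTRL, and it was larger in CTRL for 15 of 28 members, or 53.6%, beside 58% of all tested genes.

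**Figure D4:**
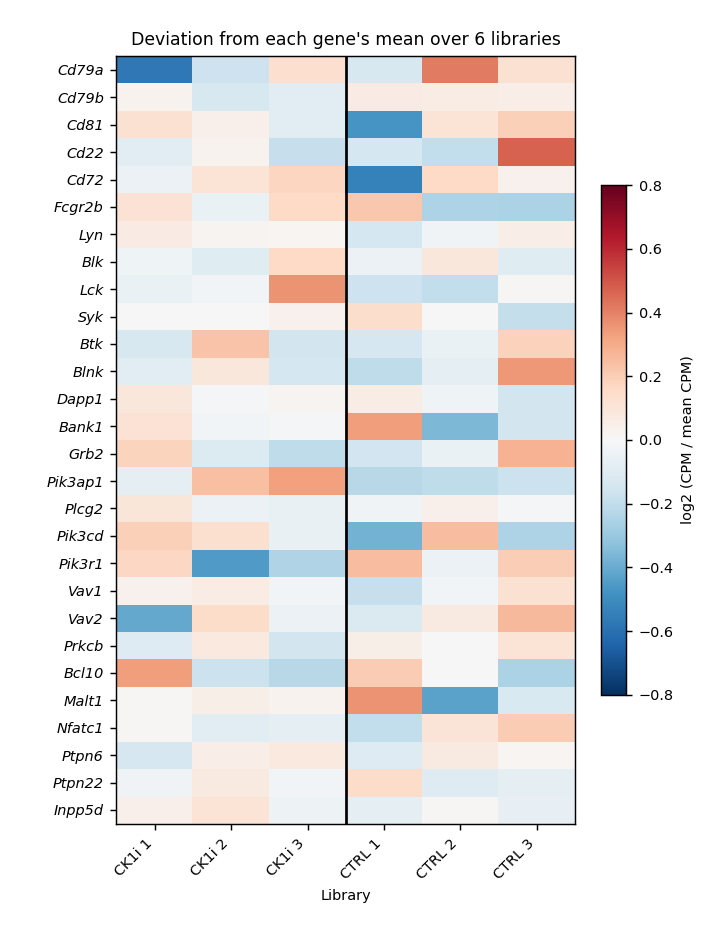
Deviation of each of the 28 tested genes (y axis, in order of role) from its own mean over 6 libraries, as log2 of the CPM over the mean (colour), in each library (x axis, CK1i left of CTRL). The strongest colours lie in single libraries and not in whole groups. Examples are CK1i replicate 1 for Cd79a, CK1i replicate 2 for Pik3r1, CTRL replicate 1 for Cd81 and Cd72, and CTRL replicate 3 for Cd22.

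The rest of the pathway was read from a list of 98 other genes, of which 90 could be tested. None was called by edgeR, DESeq2 or limma-voom. In CK1i 58 had higher and 32 lower values, so 64.4% were higher, beside 48.8% of all tested genes. Whether this share holds with a library left out, such as CTRL replicate 1, was not tested. Their median log2 fold change was 0.05. At an unadjusted p under 0.05 edgeR gave 2 higher and 1 lower gene of the 90, where 4.70% of all tested genes passed in either direction. DESeq2 gave 1 higher and 1 lower of the 90, beside 193 higher and 126 lower of 18824 genes not filtered for low counts. With limma-voom 4 were higher and 1 lower, beside 286 higher and 195 lower of 10067 genes. Fcrl5 was among the genes of DESeq2 and limma-voom and Tec among those of limma-voom alone, and both are named after their values were seen. Groups did not overlap for 10 of the 90 genes, or 11.1%, beside the 9.70% of all tested genes.

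Lair1, an inhibitory collagen receptor that recruits phosphatases, had 9.54, 7.50 and 7.22 CPM in CK1i, against 3.55, 4.79 and 4.34 CPM in CTRL. Its log2 fold change was 0.94 ± 0.32 (SE; unadjusted p = 0.0117, edgeR adjusted p = 0.929), on 29, 23 and 18 counts in CK1i and 10, 12 and 13 in CTRL. Dock2, an exchange factor that activates RAC in lymphocyte migration, had 661, 702 and 672 CPM in CK1i, against 933, 724 and 947 CPM in CTRL. All CK1i libraries lay below all CTRL libraries, with a log2 fold change of -0.36 ± 0.15 (SE; unadjusted p = 0.0325, edgeR adjusted p = 0.9995). Pik3r5, a regulatory subunit of PI3K gamma, had 60.2, 53.5 and 45.7 CPM in CK1i and 37.6, 48.3 and 37.4 CPM in CTRL. These overlap, with a log2 fold change of 0.37 ± 0.17 (SE; unadjusted p = 0.0472, edgeR adjusted p = 0.9995). DESeq2 gave an unadjusted p of 0.0565 for Lair1, 0.0172 for Dock2 and 0.0956 for Pik3r5.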

How the data were processed

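RNA of splenic CLL cells was read from transcript 3′ ends with a QuantSeq forward kit that adds unique molecular identifiers (UMIs), per the labels' protocols. The values are raw counts, 1 whole number per gene and library, as the authors deposited them for 6 libraries. The submitters' processing notes list UMI-tools 1.1.1, STAR 2.7.3a, featureCounts 1.6.3 and the build GRCm38.p6, with no role or order. The sources do not say whether UMIs were collapsed or reads counted by strand. Limits for a count of 0 cover counting error only, while intervals of fold changes also hold the spread between libraries. A coefficient of variation over 3 libraries can fall below counting error. Examples are Cd79b and Pik3ap1 in CTRL and Lyn, Syk and Malt1 in CK1i. Such a value does not measure the precision of a group. Replicate numbers were given in accession order and only name a library. All 6 libraries carry 1 batch label, so no batch could be tested. No pair of libraries agreed within sampling noise (chi-square per degree of freedom 4.22 to 11.6).

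The main test was that of edgeR 4.0.16 in R 4.3.3: filterByExpr (minimum count 10, minimum total 15), TMM scaling and the robust quasi-likelihood F test, adjusted by Benjamini-Hochberg over all 10067 tested genes, with adjusted p under 0.05 as threshold. The SE is the log2 fold change divided by the root of F. The interval uses the same SE at 95%. DESeq2 1.42.0, run without the filterByExpr step, and limma 3.58.1, run with it, were alternatives. The limit for a count of 0 is 3 counts of a library. The test was checked on simulated data with the same spread beyond counting error for every gene and no outlying library. That check does not measure how readily a change would be found in these libraries. The text names every member, other pathway genes with an unadjusted edgeR p under 0.05, and markers of a list by level. The members and lists were chosen with earlier results of these data known. Some genes of the lists are not reported here.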

Additional observations from a re-analysis of the deposited data

How the results depend on the processing

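The 0 called members and 0 called genes of the other pathway list were also found with RLE size factors, no filter on low counts, a minimum count of 20, DESeq2, limma-voom, no robust estimation, and each library left out in turn. Over all genes, the count called was 3 with no filter and 5 with DESeq2, also run without that filter. It was 0 to 1 with 1 library left out, and no member was among the called genes. With 1 library left out, 13 to 17 members had higher values in CK1i and the median log2 fold change ran from -0.018 to 0.035. Directions of the members are not firm. Of the 28 members, 13 kept their sign throughout and 15 changed it at least once, in 27 values with 1 library left out and 1 otherwise (Bcl10, -0.005 with limma-voom). With 1 library left out the log2 fold change ran from -0.095 to 0.27 for Bank1, -0.20 to 0.12 for Bcl10, -0.058 to 0.078 for Blk, -0.19 to 0.098 for Blnk, -0.15 to 0.091 for Btk, -0.28 to 0.087 for Cd22, -0.017 to 0.30 for Cd72, -0.12 to 0.19 for Cd81, -0.19 to 0.070 for Grb2, -0.12 to 0.29 for Malt1, -0.055 to 0.021 for Plcg2, -0.036 to 0.098 for Ptpn22, -0.046 to 0.067 for Ptpn6, -0.063 to 0.097 for Syk and -0.031 to 0.13 for Vav1. The cause was not tested. No paired analysis was possible because the labels state no pairing of libraries. The replicate numbers used here only name a library and pair nothing. Depth limits Cd79a, Pik3ap1, Fyn and Zap70 most.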
